A study of Homo sapiens with 8 samples.

Results

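The genes described here are 48 genes of the integrated stress response and the unfolded protein response, chosen by name from the 17309 genes of the count table. They were divided into an amino acid branch of 29 genes driven by the transcription factor ATF4, an endoplasmic reticulum (ER) branch of 14 chaperone and ER-associated degradation (ERAD) genes, and 5 sensors and transducers of stress. SW480 and DLD-1, lines grown from human colorectal adenocarcinomas, were infected with virus carrying a control hairpin (shControl) or a hairpin against NAT10 (shNAT10), the acetyltransferase that writes acetylcytidine on RNA. Messenger RNA was purified on oligo(dT) beads and read as 50-base single ends, and each of the 4 groups holds 2 libraries. Read counts had been estimated for each transcript, and they were summed over the transcripts of a gene. All 8 libraries came from virus-infected cells, so the controls also carried a hairpin. The labels call the 2 libraries of a group biological repeats, but they do not say which of the study's NAT10 hairpins was used, nor whether the repeats were separate infections, so the p-values measure only the spread between these libraries.

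When amino acids run short or unfolded proteins collect in the ER, kinases such as GCN2 (EIF2AK4) and PERK (EIF2AK3) phosphorylate the initiation factor eIF2, which slows protein synthesis in general while ATF4 is translated more. ATF4 then drives genes that make and import amino acids, together with CHOP (DDIT3) and feedback genes such as TRIB3. In parallel, the ER sensors IRE1 (ERN1) and ATF6 drive chaperones and degradation factors, IRE1 by splicing the mRNA of XBP1. Both arms are known to be used by tumour cells that grow fast or are starved of nutrients.

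The promoters of the 2 branches differ in the short sequences these factors are known to bind. Windows from 250 bases before to 50 bases after each RefSeq transcript start (GRCh38.p14) were searched on both strands, and 44 of the 48 genes had a window (not NUPR1, PSPH, SHMT2 or ALDH1L2). The C/EBP-ATF element TGATGNAA lay in 8 of 25 amino acid genes (32.0%) and in 1 of 14 ER genes, against 2.86% of the 11037 tested genes with a window. The ER stress element, CCAAT and CCACG with 9 bases between, lay in 4 of 14 ER genes (28.6%), in XBP1 and in 0 of 25 amino acid genes, against 0.145% of all. Its shorter form, ATTGG and CCACG with 1 base between, lay in 3 of 14 ER genes (21.4%) and in 0 of 25 amino acid genes, against 0.127% of all. The letters TGACGTG, a site for spliced XBP1 and ATF6, lay in 1 of 14 ER genes, HYOU1, where they overlap the shorter element, and in 3.23% of all. A match is a description of letters and not proof of a working site. The sequences below belong to genes whose levels are given further on. Of these, HERPUD1, HSPA5 and XBP1 did not pass the limits used there for NAT10 knockdown. Capitals mark the element, each is read 5′ to 3′ on the strand given, and HERPUD1 is shown as the ER gene that holds both kinds.

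ASNS, chr7:97872458-97872487, minus strand: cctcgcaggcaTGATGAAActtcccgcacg
CHAC1, chr15:40953251-40953280, minus strand: cctggcaggagTGATGCAAcggcaggggag
HERPUD1, chr16:56931955-56931984, minus strand: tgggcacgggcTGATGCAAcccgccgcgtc
HERPUD1, chr16:56932016-56932044, plus strand: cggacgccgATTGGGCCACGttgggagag
SDF2L1, chr22:21642105-21642133, minus strand: agggttttgATTGGTCCACGcttccgagg
CRELD2, chr22:49918549-49918577, minus strand: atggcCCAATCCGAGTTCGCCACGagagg
HSPA5, chr9:125241386-125241414, minus strand: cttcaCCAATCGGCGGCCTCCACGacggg
XBP1, chr22:28800598-28800626, minus strand: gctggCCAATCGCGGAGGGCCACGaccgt

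The windows of PSAT1, SLC38A2, VLDLR, DDIT4, DNAJB9 and SEL1L, which also return below, held none of the 4 elements.

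Between 15147805 and 17271336 counts were assigned per library, and all 48 genes were in the table. NAT10 itself stood at 122 CPM in both SW480 shControl libraries and at 23.6 and 27.9 CPM in shNAT10, a remaining level of 21.0%. In DLD-1 it stood at 121 CPM in both shControl libraries and at 59.0 and 54.4 CPM in shNAT10, a remaining level of 47.0%. CPM are counts scaled to library size, after TMM normalization. The 8 epithelial markers in the table summed to 3170 to 3930 CPM in SW480 and 7500 to 8090 CPM in DLD-1, while 9 markers of fibroblasts, blood and vessels summed to between 19.8 and 36.0 CPM, with 1 to 3 of them at 0 in both libraries of a group. Of these 9, CD68 alone stood at 17.3 to 30.7 CPM. Among the 8 epithelial markers, KRT20 stood at 0.0585 to 0.234 CPM in SW480 and 17.5 to 20.6 CPM in DLD-1. VIL1 stood at 13.05 to 15.8 CPM in SW480 and 4.2 to 6.83 CPM in DLD-1. The part of the markers in the results was not tested. All 48 passed the low-count filter of edgeR, CBS, STC2 and ALDH1L2 only through SW480, so medians and counts by sign in DLD-1 are given for the 26 amino acid genes detected (mean CPM of at least 1) in both lines.

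In control cells the levels per transcript length (mean FPKM, n = 2) of both branches spread widely. ATF4 had the highest level of all 48 genes in both lines, with a mean of 707 FPKM in SW480 shControl and 719 FPKM in DLD-1 shControl. Next came the glutamine carrier SLC1A5 (435 FPKM), the heavy chain SLC3A2 (422 FPKM) and asparagine synthetase ASNS (361 FPKM) in SW480, and the ER chaperones HSP90B1 (392 FPKM) and the heavy chain SLC3A2 (284 FPKM) in DLD-1. The main ER chaperone HSPA5 (BiP) had 321 FPKM in SW480 and 220 FPKM in DLD-1. The sensors were low, from 3.23 FPKM for ERN1 to 27.8 FPKM for ATF6 in SW480, with the transducer XBP1 at 116 FPKM.

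**Figure D1:**
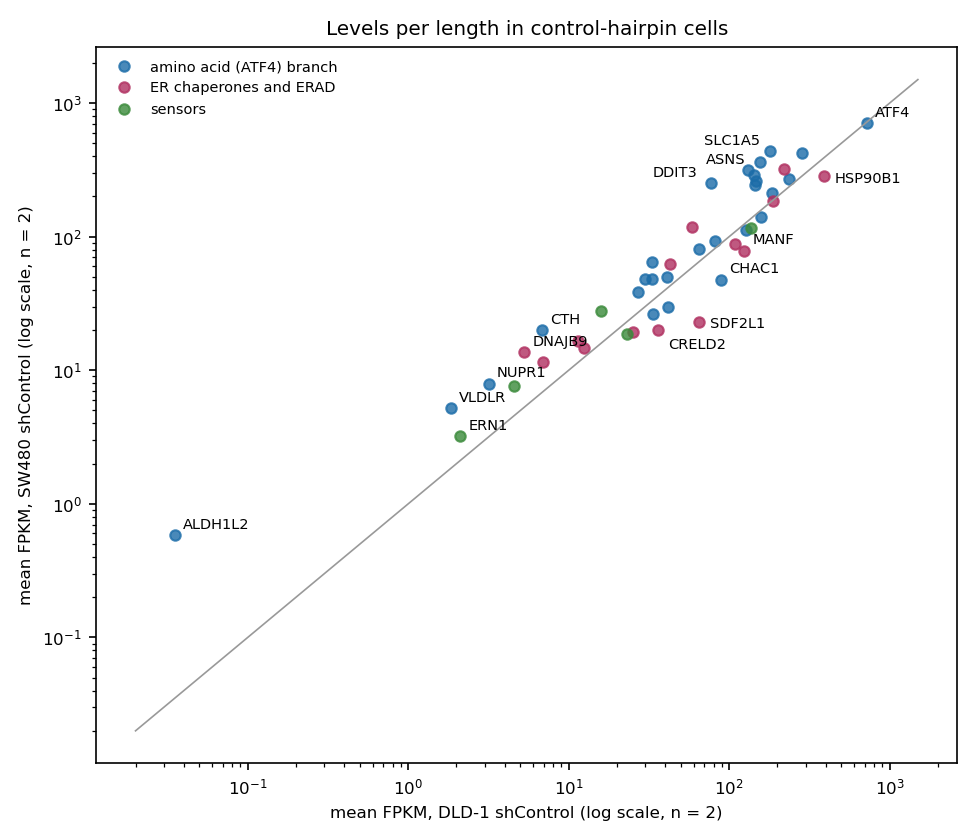
Mean FPKM (level per transcript length, log scales, n = 2) in shControl cells of DLD-1 (x axis) and SW480 (y axis), 1 point per gene, coloured by branch, with the line of equal level. ATF4 lies on the line at 719 and 707 FPKM, ALDH1L2 far above it, and SDF2L1, CRELD2 and CHAC1 below it; CBS and STC2, listed at 0 in DLD-1, cannot be drawn on a log scale.

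Most amino acid genes had more RNA in SW480 than in DLD-1. By edgeR's quasi-likelihood test with Benjamini-Hochberg adjustment at 0.05, SW480 shControl was higher in 18 and lower in 4 of the 26 amino acid genes detected in both lines, higher in 7 and lower in 6 of the 14 ER genes, and higher in 3 and lower in 2 of the 5 sensors, where 38.1% of all tested genes were higher and 35.6% lower. STC2, a secreted glycoprotein, had 404 and 379 CPM in SW480 shControl, and no count in either DLD-1 shControl library, which makes it at least 4426-fold higher when DLD-1 is set to a floor of 3 counts over the group. CBS, which makes cystathionine from homocysteine and serine, had 35.8 and 33.8 CPM against no count in 4 of 4 DLD-1 libraries, which is at least 393-fold higher on the same floor. The 3 counts cover counting error only, and reads of CBS may be shared with a near-identical copy of the gene. ALDH1L2, a mitochondrial folate enzyme, had 4.10 and 3.92 CPM in SW480 and 0.235 and 0.296 CPM in DLD-1, a log2 difference of 3.88 ± 0.37 (SE).

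Other large differences between the control cells went both ways. DDIT3 (CHOP) stood at 175 and 154 CPM in SW480 shControl and 53.7 and 50.7 CPM in DLD-1 shControl (log2 difference 1.66 ± 0.082). VLDLR, CTH, NUPR1, ASNS and TRIB3 were higher in SW480 by 1.5, 1.45, 1.31, 1.26 and 1.21 on the log2 scale. Among the ER genes DNAJB9 was the furthest above DLD-1, by 1.35. In the other direction, SDF2L1 (-1.55), CHAC1 (-0.92), CRELD2 (-0.87) and MANF (-0.69) had less RNA in SW480. ATF4 itself was not among the genes called, with a log2 difference of -0.052 ± 0.08 (edgeR adjusted p = 0.57), and PDIA6, DDIT4, PSAT1 and MTHFD2 were not called either. Each line is 1 cell line, so a difference between them cannot be told apart from other differences between these cultures.

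NAT10 knockdown moved few of the 48 genes past the limits. Counts are shares of all RNA in a library, so fewer cells with a transcript and less of it per cell cannot be told apart. The study's limits were used first, a fold change above 1.2 or below 0.83 with an unadjusted p under 0.05. In SW480, 3 genes fell past them (CHAC1, VLDLR and the ERAD adaptor SEL1L), where 4.98% of all tested genes did, and 2 rose (the ER chaperone partners CRELD2 and SDF2L1), where 4.1% of all tested genes did. At an adjusted p under 0.05 by edgeR, CHAC1 was lower, against 0.903% of all genes, and CRELD2 was higher, against 0.778% of all genes. With 1 SW480 library left out, the limits caught 6 genes lower (shControl replicate 1 or shNAT10 replicate 2 omitted), 4 (shControl replicate 2 omitted) or 2 (shNAT10 replicate 1 omitted), and between 1 and 5 genes higher. VLDLR was lost without SW480 shNAT10 replicate 1, and SDF2L1 without that library or without shControl replicate 2, while CHAC1, SEL1L and CRELD2 stayed past the limits in each of these refits.

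In DLD-1, 6 genes fell past the limits, where 1.34% of all tested genes did, and 0 rose, where 1.34% of all did. Of these, 5 were amino acid genes (CHAC1, DDIT4, ASNS, PSAT1 and VLDLR) and 1 was the ER co-chaperone DNAJB9. None of the 48 passed an adjusted p of 0.05 by edgeR or by DESeq2, where edgeR called 0.0147% of all tested genes lower and 0.0% higher. At an unadjusted edgeR p under 0.05 there were 15 of the 48, against 5.96% of all tested genes. The count rested on single libraries. It was 1 (DNAJB9) without DLD-1 shControl replicate 1 and 2 (DNAJB9 and VLDLR) without shNAT10 replicate 2, but 13 without shControl replicate 2 and 12 without shNAT10 replicate 1.

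Over the mean of both lines, edgeR called 4 genes lower at an adjusted p under 0.05, all of the amino acid branch (CHAC1, PSAT1, SLC38A2 and VLDLR), where 0.565% of all genes were lower. By the fold and p limits 4 genes were lower (CHAC1, VLDLR, DNAJB9 and SEL1L), where 1.82% of all genes were, and 2 were higher (SDF2L1 and CRELD2), where 1.3% were. None was higher by edgeR, where 0.455% of all genes were, and 1 by DESeq2. In either direction, 16 of the 48 genes had an unadjusted edgeR p under 0.05, against 14.5% of all genes. The number lower by adjusted p was 0 in 5 of the 8 refits that left out 1 library (SW480 shControl replicate 1 or 2, DLD-1 shControl replicate 1, or either DLD-1 shNAT10 library), 2 when SW480 shNAT10 replicate 1 was omitted and 9 when replicate 2 of that group was.

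**Figure D2:**
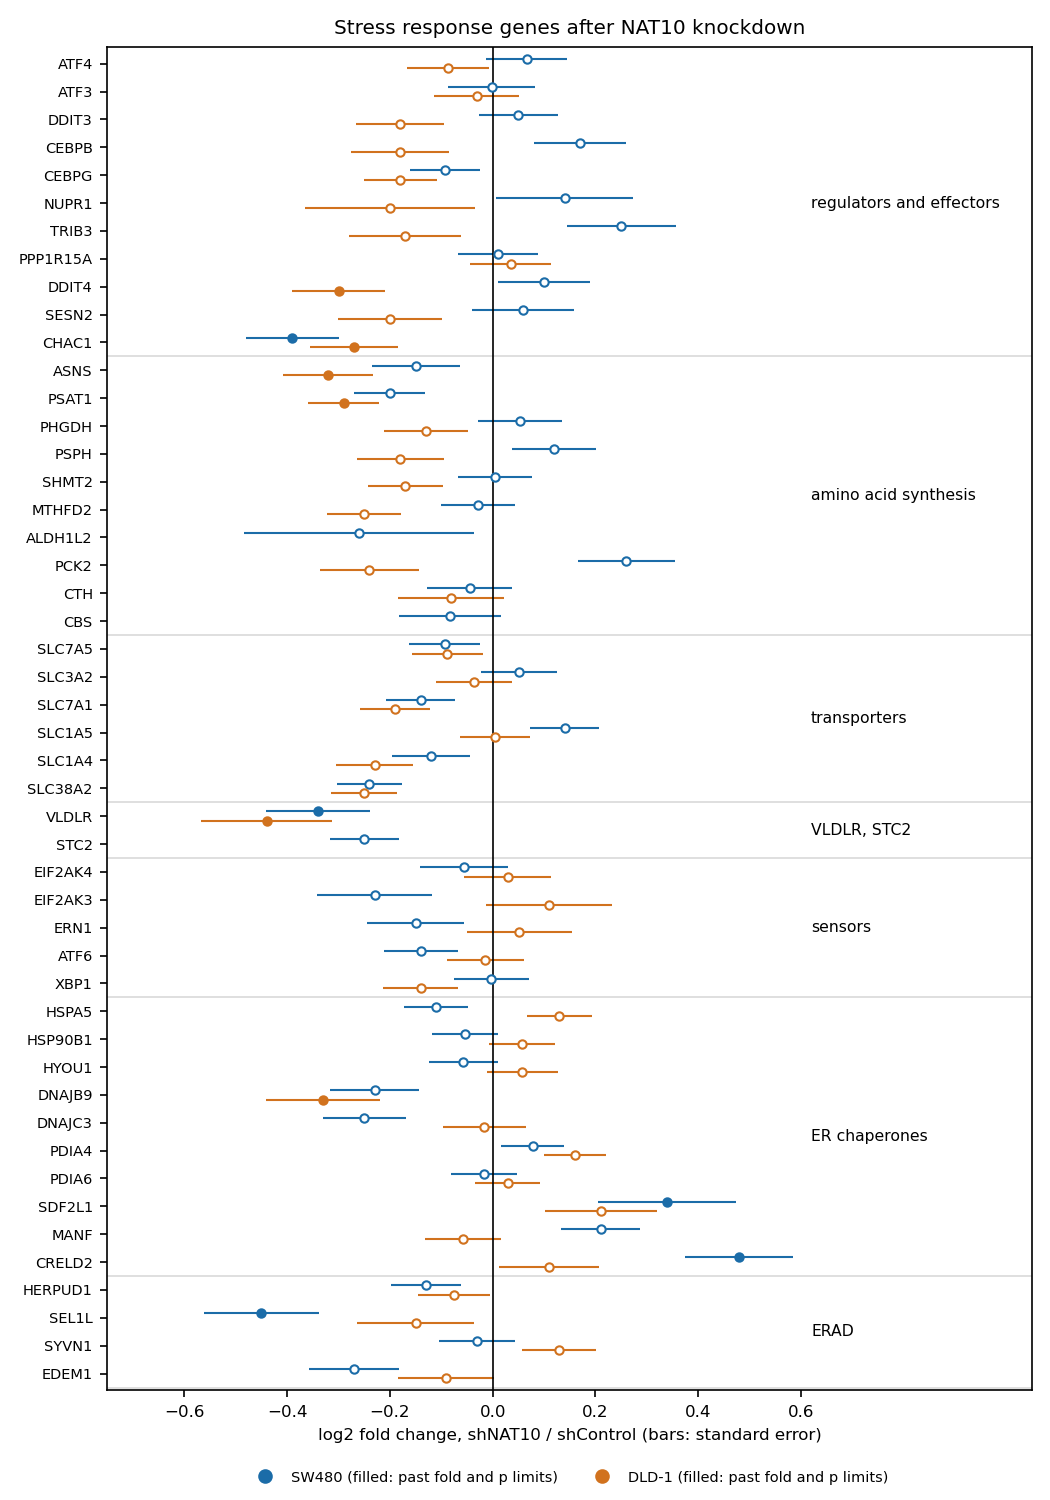
Log2 fold change (x axis, shNAT10 over shControl) with its standard error for each gene (y axis), in SW480 (blue) and DLD-1 (orange), grouped by role, with filled points past the fold and p limits. Filled points are few, 5 in SW480 and 6 in DLD-1, and the orange points of the regulators, synthesis genes and transporters lie mostly left of zero; CBS, STC2 and ALDH1L2 are drawn for SW480 only.

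Among the 11 regulators and effectors, the called genes were CHAC1 in both lines and DDIT4 in DLD-1. CHAC1, a glutathione-degrading enzyme and target of ATF4 and CHOP, stood at 60.6 and 59.8 CPM in SW480 shControl and 49.3 and 42.6 CPM in SW480 shNAT10, and at 121 and 108 CPM in DLD-1 shControl and 98.7 and 89.9 CPM in DLD-1 shNAT10. The groups did not overlap in either line, and the log2 change was -0.39 ± 0.091 (SE; edgeR adjusted p = 0.047) in SW480 and -0.27 ± 0.086 (edgeR adjusted p = 0.59) in DLD-1. Without 1 library its SW480 log2 change lay between -0.49 and -0.29, with an edgeR adjusted p between 0.035 and 0.35. With a length correction its DLD-1 change was -0.26 and no longer past the limits. Over both lines the change was -0.33 ± 0.062 (SE; edgeR adjusted p = 0.023). DDIT4 (REDD1), an inhibitor of mTORC1 signalling, stood at 167 and 161 CPM in SW480 shControl and 178 and 175 CPM in SW480 shNAT10, and at 201 and 176 CPM in DLD-1 shControl and 169 and 137 CPM in DLD-1 shNAT10. Its log2 change in DLD-1 was -0.3 ± 0.09 (SE; edgeR adjusted p = 0.57), and both shNAT10 libraries lay below both controls there.

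ATF4 itself did not pass either limit in any comparison. Its levels were 858 and 767 CPM in SW480 shControl and 875 and 826 CPM in SW480 shNAT10 and 881 and 803 CPM in DLD-1 shControl and 837 and 749 CPM in DLD-1 shNAT10, with overlapping groups in both lines and log2 changes of 0.066 ± 0.08 and -0.087 ± 0.08 (SE). ATF4 is controlled mainly through its translation, which RNA counts do not measure. DDIT3 stood at 175 and 154 CPM in SW480 shControl and 178 and 162 CPM in SW480 shNAT10, and at 53.7 and 50.7 CPM in DLD-1 shControl and 47.0 and 45.2 CPM in DLD-1 shNAT10, where both shNAT10 libraries lay below the controls (log2 change -0.18 ± 0.086, edgeR adjusted p = 0.84). TRIB3, a pseudokinase that feeds back on ATF4 and CHOP, stood at 626 and 588 CPM in SW480 shControl and 749 and 693 CPM in SW480 shNAT10, with both shNAT10 libraries above the controls (log2 change 0.25 ± 0.11, edgeR adjusted p = 0.22). In DLD-1 TRIB3 stood at 291 and 234 CPM in DLD-1 shControl and 260 and 206 CPM in DLD-1 shNAT10, and the groups overlapped. CEBPB, a partner of ATF4, stood at 60.3 and 61.1 CPM in SW480 shControl and 71.5 and 65.0 CPM in SW480 shNAT10, and at 45.0 and 41.0 CPM in DLD-1 shControl and 41.3 and 34.5 CPM in DLD-1 shNAT10, with log2 changes of 0.17 and -0.18 that missed the limits in each line. The other regulators (ATF3, CEBPG, NUPR1, PPP1R15A and SESN2) had log2 changes between -0.093 and 0.14 (SW480) or between -0.2 and 0.035 (DLD-1), and none passed the limits.

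Among the 10 genes of amino acid synthesis, ASNS and PSAT1 fell past the limits in DLD-1 and none did in SW480. ASNS, which makes asparagine, stood at 673 and 655 CPM in SW480 shControl and 605 and 594 CPM in SW480 shNAT10, and at 307 and 247 CPM in DLD-1 shControl and 231 and 212 CPM in DLD-1 shNAT10. Both shNAT10 libraries lay below both controls in each line, and the log2 change was -0.32 ± 0.088 (SE; edgeR adjusted p = 0.48) in DLD-1 and -0.15 ± 0.086 (edgeR adjusted p = 0.36) in SW480. The DLD-1 shControl libraries differed from each other by more than shControl replicate 2 differed from either shNAT10 library, and without shControl replicate 1 the DLD-1 change was -0.15. PSAT1, the second enzyme of serine synthesis, stood at 508 and 517 CPM in SW480 shControl and 438 and 451 CPM in SW480 shNAT10, and at 489 and 431 CPM in DLD-1 shControl and 383 and 372 CPM in DLD-1 shNAT10, again without overlap in either line. Its log2 change was -0.2 ± 0.069 in SW480, -0.29 ± 0.069 in DLD-1 and -0.25 ± 0.049 over both (edgeR adjusted p = 0.03). With a GC correction its DLD-1 change was -0.26 and no longer past the limits.

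PCK2 and PSPH differed in sign between the lines. PCK2, the mitochondrial enzyme that turns oxaloacetate into phosphoenolpyruvate, stood at 150 and 149 CPM in SW480 shControl and 188 and 170 CPM in SW480 shNAT10, and at 138 and 110 CPM in DLD-1 shControl and 110 and 98.7 CPM in DLD-1 shNAT10, with log2 changes of 0.26 ± 0.095 and -0.24 ± 0.097. PSPH, the last enzyme of serine synthesis, stood at 97.1 and 90.9 CPM in SW480 shControl and 103 and 101 CPM in SW480 shNAT10, and at 82.0 and 71.4 CPM in DLD-1 shControl and 70.9 and 64.1 CPM in DLD-1 shNAT10, with log2 changes of 0.12 ± 0.082 and -0.18 ± 0.084. Neither passed the limits within a line, and PSPH has a near-identical copy in the genome, so its counts are uncertain. PHGDH, SHMT2, MTHFD2 and CTH, of serine, folate and cysteine metabolism, had log2 changes between -0.045 and 0.053 (SW480) or between -0.25 and -0.081 (DLD-1) and did not pass. CBS and ALDH1L2 were measured in SW480 alone, at -0.083 ± 0.099 and -0.26 ± 0.22.

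None of the 6 transporters passed the fold limits in either line. SLC38A2 (SNAT2), a sodium-coupled carrier of small neutral amino acids, stood at 404 and 430 CPM in SW480 shControl and 341 and 366 CPM in SW480 shNAT10, and at 370 and 365 CPM in DLD-1 shControl and 310 and 309 CPM in DLD-1 shNAT10, with both shNAT10 libraries below both controls in each line. Its log2 change was -0.24 ± 0.064 in SW480 and -0.25 ± 0.064 in DLD-1, and over both lines it was called lower at -0.24 ± 0.045 (edgeR adjusted p = 0.023), a fold of 0.846. Its RNA is the poorest in G and C of the 48 genes (38.1%), and with a correction for GC content the SW480 change was -0.12. The leucine carrier SLC7A5 and its partner SLC3A2, the arginine carrier SLC7A1, and SLC1A4 and SLC1A5 had log2 changes between -0.14 and 0.14 (SW480) or between -0.23 and 0.0038 (DLD-1). VLDLR, a lipoprotein receptor and ATF4 target, fell past the limits in both lines. It stood at 44.8 and 47.8 CPM in SW480 shControl and 33.9 and 39.1 CPM in SW480 shNAT10, and at 18.3 and 14.5 CPM in DLD-1 shControl and 12.1 and 12.1 CPM in DLD-1 shNAT10, without overlap. The log2 change was -0.34 ± 0.10 in SW480, -0.44 ± 0.13 in DLD-1 and -0.39 ± 0.082 over both (edgeR adjusted p = 0.037). Its transcript is the longest of the 48 genes (9163 bases), and after a correction for transcript length the SW480 change was -0.21 and no longer past the limits. STC2 in SW480 stood at 404 and 379 CPM in SW480 shControl and 330 and 331 CPM in SW480 shNAT10 (log2 change -0.25 ± 0.067, edgeR adjusted p = 0.088).

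**Figure D3:**
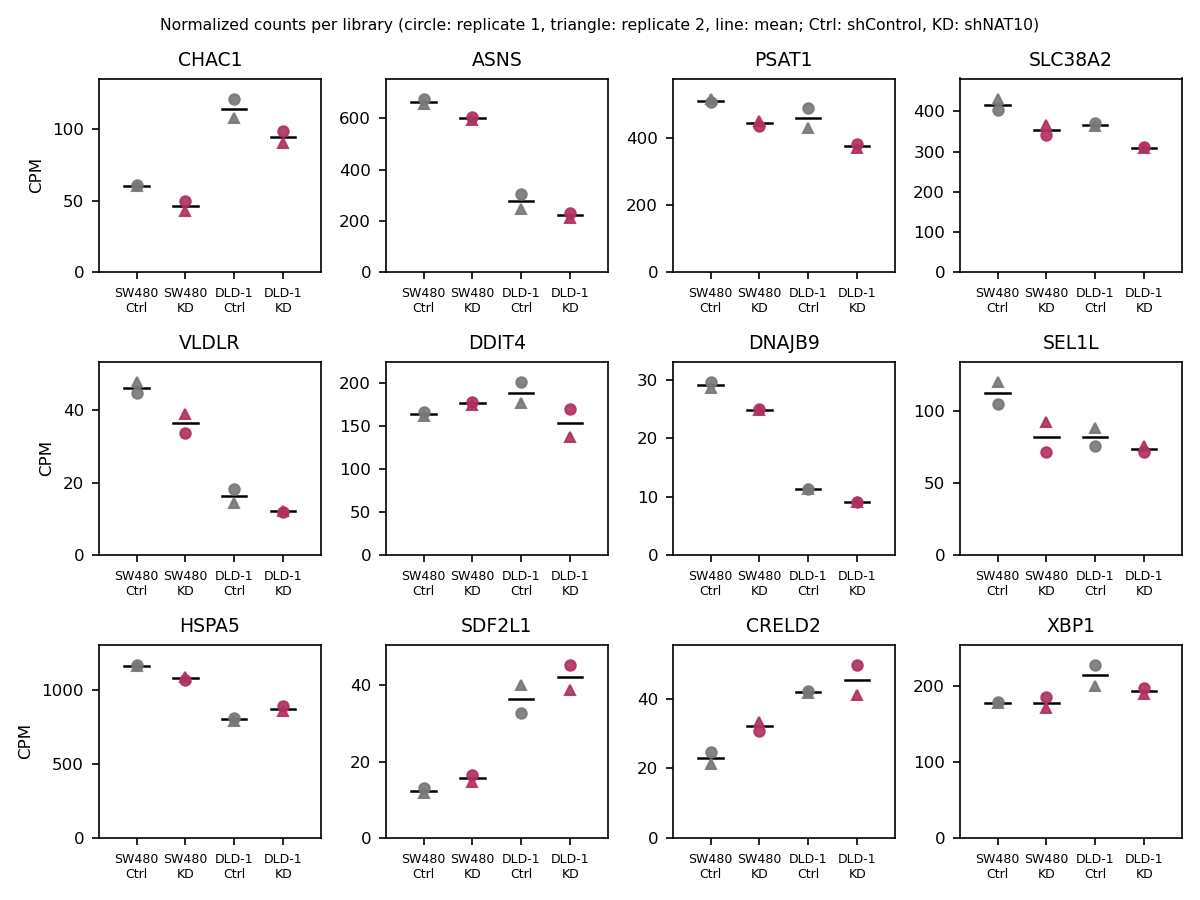
TMM-scaled CPM (y axes from 0) of 12 genes in each library, with replicate 1 as circles, replicate 2 as triangles and the group mean as a line, for shControl (grey) and shNAT10 (red). CHAC1, PSAT1, SLC38A2 and VLDLR are lower in shNAT10 in both lines, HSPA5 is lower in SW480 and higher in DLD-1, and CRELD2 runs from 21.3 and 24.6 CPM in SW480 shControl to 30.8 and 33.3 CPM in shNAT10.

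With all 8 libraries, the 5 sensors and transducers did not pass any limit in any knockdown comparison. EIF2AK4 (GCN2), which senses uncharged tRNA, stood at 96.4 and 100 CPM in SW480 shControl and 87.6 and 102 CPM in SW480 shNAT10, and at 114 and 130 CPM in DLD-1 shControl and 127 and 121 CPM in DLD-1 shNAT10. EIF2AK3 (PERK), the ER kinase for eIF2, stood at 29.8 and 31.0 CPM in SW480 shControl and 23.2 and 28.6 CPM in SW480 shNAT10, and at 17.9 and 19.2 CPM in DLD-1 shControl and 18.2 and 21.8 CPM in DLD-1 shNAT10. ERN1 (IRE1) stood at 24.9 and 24.7 CPM in SW480 shControl and 22.5 and 22.2 CPM in SW480 shNAT10, and at 15.6 and 17.4 CPM in DLD-1 shControl and 17.7 and 16.5 CPM in DLD-1 shNAT10. In SW480 both shNAT10 libraries lay below the controls for EIF2AK3, ERN1 and ATF6, with log2 changes of -0.23 ± 0.11, -0.15 ± 0.094 and -0.14 ± 0.072, while 26.2% of all tested genes were lower without overlap there. ATF6, a transcription factor released from the ER membrane by stress, stood at 101 and 108 CPM in SW480 shControl and 91.5 and 97.5 CPM in SW480 shNAT10, and at 62.6 and 59.6 CPM in DLD-1 shControl and 61.6 and 59.4 CPM in DLD-1 shNAT10.

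XBP1 stood at 178 and 178 CPM in SW480 shControl and 185 and 170 CPM in SW480 shNAT10, and at 227 and 200 CPM in DLD-1 shControl and 198 and 189 CPM in DLD-1 shNAT10, with log2 changes of -0.0026 ± 0.073 and -0.14 ± 0.072. The transcript that encodes its spliced, active form took 8.54% and 10.1% of XBP1 counts in SW480 shControl and 9.27% and 6.86% in shNAT10. In DLD-1 it took 4.27% and 3.25% in shControl and 2.3% and 4.27% in shNAT10. The groups overlapped in both lines, and every SW480 library had a larger share than every DLD-1 library. These shares depend on how the counting program divided 50-base reads between transcripts that differ by a short segment, so they are estimates.

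In the ER branch, 2 chaperone genes rose past the limits in SW480 and 1 fell past them in DLD-1. CRELD2, an ER protein induced by ATF6, stood at 24.6 and 21.3 CPM in SW480 shControl and 30.8 and 33.3 CPM in SW480 shNAT10, and at 42.2 and 41.7 CPM in DLD-1 shControl and 49.5 and 41.0 CPM in DLD-1 shNAT10. In SW480 it rose by 0.48 ± 0.10 on the log2 scale (edgeR adjusted p = 0.038) without overlap, and without 1 library the rise lay between 0.38 and 0.59 with an edgeR adjusted p between 0.029 and 0.45. In DLD-1 the groups overlapped and the change was 0.11 ± 0.097. SDF2L1, a cofactor of BiP, stood at 13.1 and 11.8 CPM in SW480 shControl and 16.7 and 14.9 CPM in SW480 shNAT10, and at 32.7 and 40.1 CPM in DLD-1 shControl and 45.3 and 38.9 CPM in DLD-1 shNAT10. It rose past the limits in SW480 (0.34 ± 0.13, edgeR adjusted p = 0.19) and overlapped in DLD-1 (0.21 ± 0.11). Both genes are rich in G and C (60.7% and 65.5%), and in SW480 log2 changes over all genes ran with GC content, from a median of -0.107 in the lowest quartile to 0.0996 in the highest. They also ran with transcript length, from a median of 0.104 in the shortest quartile to -0.114 in the longest, and both transcripts are short (1577 and 865 bases). After a GC or a length correction, both added once the data had been seen, CRELD2 rose by 0.41 or 0.4, and SDF2L1, at 0.22 or 0.2, was no longer past the limits.

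The abundant chaperones did not pass the limits in either line. HSPA5 (BiP) stood at 1169 and 1161 CPM in SW480 shControl and 1072 and 1090 CPM in SW480 shNAT10, and at 815 and 791 CPM in DLD-1 shControl and 891 and 862 CPM in DLD-1 shNAT10, lower in both shNAT10 libraries of SW480 and higher in both of DLD-1, with log2 changes of -0.11 ± 0.062 and 0.13 ± 0.062 that did not pass. HSP90B1 (GRP94) stood at 700 and 713 CPM in SW480 shControl and 655 and 706 CPM in SW480 shNAT10, and at 996 and 979 CPM in DLD-1 shControl and 1025 and 1030 CPM in DLD-1 shNAT10, with log2 changes of -0.054 and 0.057. MANF, a secreted ER stress protein, stood at 51.3 and 47.5 CPM in SW480 shControl and 58.9 and 55.2 CPM in SW480 shNAT10, and at 78.2 and 81.6 CPM in DLD-1 shControl and 76.4 and 77.1 CPM in DLD-1 shNAT10, with log2 changes of 0.21 ± 0.077 and -0.058 ± 0.074. DNAJB9 (ERdj4), a BiP co-chaperone that IRE1 signalling induces, stood at 29.6 and 28.6 CPM in SW480 shControl and 25.0 and 24.8 CPM in SW480 shNAT10, and at 11.3 and 11.4 CPM in DLD-1 shControl and 9.07 and 9.06 CPM in DLD-1 shNAT10. It was lower in both shNAT10 libraries of each line, past the limits in DLD-1 (-0.33 ± 0.11, edgeR adjusted p = 0.66) and short of them in SW480 (-0.23 ± 0.087). HYOU1, DNAJC3, PDIA4 and PDIA6 had log2 changes between -0.25 and 0.078 (SW480) or between -0.016 and 0.16 (DLD-1).

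All 4 ERAD genes had negative log2 changes in SW480, as did 51.9% of all tested genes, and 1 of the 4 passed the limits. SEL1L, the adaptor of the HRD1 ubiquitin ligase, stood at 105 and 120 CPM in SW480 shControl and 71.7 and 92.8 CPM in SW480 shNAT10, and at 75.5 and 88.5 CPM in DLD-1 shControl and 71.6 and 76.0 CPM in DLD-1 shNAT10. Its log2 change in SW480 was -0.45 ± 0.11 (SE; edgeR adjusted p = 0.058) and the change in DLD-1 was -0.15 ± 0.11, with overlapping groups. HERPUD1, which recruits the ligase complex, stood at 167 and 151 CPM in SW480 shControl and 148 and 141 CPM in SW480 shNAT10, and at 112 and 108 CPM in DLD-1 shControl and 105 and 104 CPM in DLD-1 shNAT10, with log2 changes of -0.13 ± 0.069 and -0.075 ± 0.07. The ligase SYVN1 (HRD1) itself and the mannosidase-like EDEM1 had log2 changes of -0.031 and -0.27 in SW480 and 0.13 and -0.091 in DLD-1.

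Set side by side, the branch medians lay apart in DLD-1 and closer together in SW480. In DLD-1, 24 of the 26 amino acid genes detected in both lines had a negative log2 change (92.3%), with a median of -0.18, against 49.0% and a median of 0.0 over all tested genes, while 6 of the 14 ER genes did, with a median of 0.043. Without overlap between the groups, 14 amino acid genes were lower and 0 higher, and 4 ER genes were lower and 4 higher, where 18.2% of all genes were lower and 17.7% higher. In SW480, 12 of the 26 amino acid genes had a negative change, with a median of 0.0078, and 10 of the 14 ER genes did, with a median of -0.056, against 51.9% and -0.0095 over all genes. Without overlap there, 10 of all 29 amino acid genes were lower and 6 higher, and 6 ER genes were lower and 4 higher, where 26.2% of all genes were lower and 21.7% higher. No test was made of the branches as sets, since their members were chosen with earlier results known.

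The amino acid branch also differed between the repeats of DLD-1. Relative to the mean of the DLD-1 shControl libraries, the median log2 level of the 26 genes was 0.078 in shControl replicate 1, -0.078 in shControl replicate 2, -0.11 in shNAT10 replicate 1 and -0.26 in shNAT10 replicate 2. Replicate 2 was below replicate 1 in 24 of the 26 genes within shControl (median log2 difference -0.16) and in 24 of 26 within shNAT10 (median -0.13). Over all tested genes that share was 48.4% and 48.9%, with medians of 0.0, and in the ER branch the medians were 0.032 and -0.032. The DLD-1 median log2 change of the 26 genes (-0.18) was -0.094 without shControl replicate 1, -0.12 without shNAT10 replicate 2, -0.25 without shControl replicate 2 and -0.26 without shNAT10 replicate 1, negative in each case. In SW480 the medians of the 29 amino acid genes were 0.02 and -0.02 in shControl and 0.0013 and -0.027 in shNAT10.

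**Figure D4:**
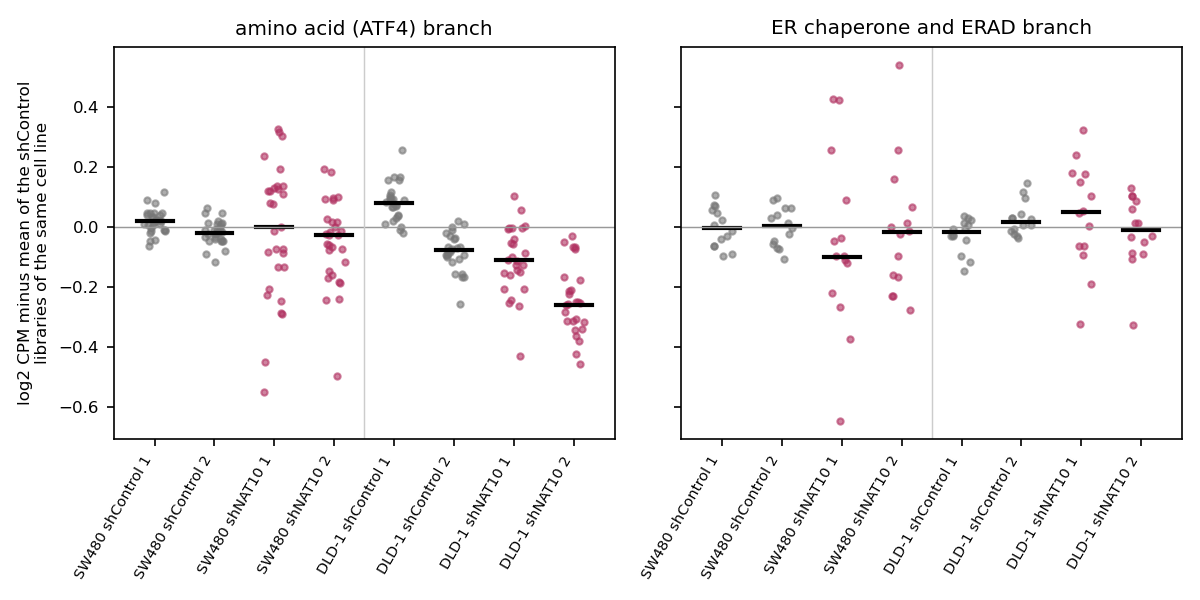
Log2 CPM of each gene minus the mean of the shControl libraries of its cell line (y axis) in each library (x axis), for the amino acid branch (left; 29 genes in SW480, 26 in DLD-1) and the ER branch (right, 14 genes), with the median as a line. The DLD-1 amino acid genes step from 0.078 and -0.078 in shControl to -0.11 and -0.26 in shNAT10, and the ER medians stay between -0.1 and 0.049.

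Whether the lines differed in their response was tested as the SW480 change minus the DLD-1 change. By the fold and p limits, 7 genes were higher (CEBPB, TRIB3, DDIT4, PSPH, PCK2, MANF and CRELD2), where 3.8% of all tested genes were, and 0 were lower, where 4.05% were. The largest difference was that of PCK2, 0.5 ± 0.14 on the log2 scale (edgeR adjusted p = 0.44). TRIB3 followed with 0.42 ± 0.15 (edgeR adjusted p = 0.49), and DDIT4 with 0.4 ± 0.13 (edgeR adjusted p = 0.47). After adjustment 0 of the 48 passed by edgeR or by DESeq2, where edgeR called 0.00734% of all genes lower and 0.0% higher. At an unadjusted edgeR p under 0.05 there were 8 of the 48, against 9.38% of all genes. Leaving out 1 library gave 2 to 11 genes higher and 0 to 3 lower by the limits. The count was 2 (PCK2 and MANF) without DLD-1 shNAT10 replicate 2, 3 (CEBPB, DDIT4 and PCK2) without SW480 shControl replicate 2, 4 when DLD-1 shControl replicate 1 was omitted and 11 when replicate 2 of that group was.

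Other genes of these pathways were counted in the same way. Of 34 further ATF4 targets, 3 fell past the limits in SW480 (the cystine carrier SLC7A11, the glutamine carrier SLC38A1 and the growth arrest gene GADD45A). In DLD-1, 3 fell past them (SLC7A11, GADD45A and the repressor JDP2), and none rose past them in either line. Over all tested genes 4.98% fell past the limits in SW480 and 1.34% in DLD-1. SLC38A1 stood at 859 and 909 CPM in SW480 shControl and 596 and 732 CPM in shNAT10, a log2 change of -0.41 (edgeR adjusted p = 0.03). In DLD-1 it stood at 331.9 and 360.4 CPM in shControl and 313.5 and 314.8 CPM in shNAT10, at -0.14. SLC7A11 stood at 430 and 454 CPM in SW480 shControl and 312 and 387 CPM in shNAT10, and at 144 and 145 CPM in DLD-1 shControl and 126 and 114 CPM in shNAT10, with log2 changes of -0.34 and -0.27. The log2 changes of GADD45A were -0.29 (SW480) and -0.31 (DLD-1), and that of JDP2 in DLD-1 was -0.29. JDP2 went the other way in SW480, from 39.97 and 36.88 CPM in shControl to 48.51 and 43.05 CPM in shNAT10, at 0.25. The SW480 change of JDP2 minus its DLD-1 change was 0.54, past the limits (edgeR adjusted p = 0.4). Of the 34 such differences, 2 were higher past the limits and 1 was lower (SLC38A1, at -0.27). Over all tested genes 3.8% were higher and 4.05% lower. Over the 32 of them detected in both lines the median was -0.081 in SW480, where 24 had a negative change (75.0%, against 51.9% of all genes), and -0.14 in DLD-1, where 29 did (90.6%, against 49.0% of all genes). As in the amino acid branch, DLD-1 replicate 2 lay below replicate 1 in 27 of the 32 genes within each group. In SW480, log2 changes over all genes ran with GC content and transcript length. Values corrected for either are not given for these further genes. Of 44 further unfolded protein response genes, 1 fell past the limits in SW480 (EDEM3, at -0.3) and 0 in DLD-1, and 0 rose in either, with medians of -0.041 and 0.0076. The share that fell in SW480 (2.27%) was below that of all tested genes, and 9 and 3 genes had an unadjusted edgeR p under 0.05, against 19.3% and 5.96% of all genes. For the difference between the lines, 1 of the 44 was higher past the limits and 1 was lower, a share of 2.27% each.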

How the data were processed

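The 8 libraries (SW480 or DLD-1, shControl or shNAT10, 2 per group) took their groups from the labels. The authors deposited estimated counts per RefSeq transcript (expected counts as RSEM gives them, not normalized) and, for each library, FPKM from the same pipeline. The submitters' processing notes name HISAT2 2.0.4, Bowtie2 2.2.5, RSEM 1.2.12 and hg38. The FPKM values of SW480 shNAT10 replicate 2 stop part of the way, so the deposited FPKM served only for levels in control cells. Strand was not marked by the library preparation as described, so reads of overlapping antisense genes cannot be separated.

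Counts were summed per gene, rounded, filtered (filterByExpr, minimum count 10, minimum total 15), scaled by TMM, and 4 group means were fitted over 13619 genes (edgeR 4.0.16, R 4.3.3). The standard error of a log2 fold change is its size over the square root of F, and p-values were adjusted by Benjamini-Hochberg over all tested genes. The biological coefficient of variation was 0.0585, and the 2 libraries of each group differed by more than sampling noise (chi-square per degree of freedom 3.32 to 9.77). The fit was tested on simulated data at an adjusted p under 0.05. It recovered 82% (SW480) and 92% (DLD-1) of changes of 1 on the log2 scale, and 61% and 63% of changes of 0.5. False calls made up 4.67% and 6.63% of its calls. Changes smaller than 0.5 were not simulated. The simulated counts used each gene's mean over all 8 libraries and the spread that the fit itself had estimated. The SW480 and DLD-1 figures therefore do not compare the lines. The calls used the study's limits (unadjusted p under 0.05 and a fold above 1.2 or below 0.83) or an adjusted p under 0.05. Alternatives were DESeq2 1.42.0, upper-quartile scaling, other filters, each line fitted alone, a replicate term, each library left out, and, added after the data were seen, corrections for GC content and transcript length.

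The 48 genes, the further lists and the tests were chosen with earlier results of these data known. Values per library are given for genes past either call rule in any knockdown comparison and for 14 pathway genes listed by name (ATF4, DDIT3, ASNS, TRIB3, CHAC1, HSPA5, HSP90B1, HERPUD1, DNAJB9, XBP1, ATF6, ERN1, EIF2AK3 and EIF2AK4). From each further list at most 3 genes per direction and line are named, those past the limits with the smallest p. STC2, CBS and ALDH1L2 are given besides because they were near 0 in DLD-1. Further lists held 34 ATF4 targets, 44 unfolded protein response genes, 16 genes of the eIF2 machinery, 13 heat shock genes and markers of epithelial and other cells. Promoter windows came from RefSeq (GRCh38.p14).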

Additional observations from a re-analysis of the deposited data

Results flagged for a closer look

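For 4 genes every shNAT10 library lay on one side of the controls in SW480 and on the other side in DLD-1. DDIT4 was higher in SW480 and lower in DLD-1, and the SW480 change minus the DLD-1 change was 0.4 on the log2 scale (SE 0.13, edgeR adjusted p = 0.47). PSPH was higher in SW480 and lower in DLD-1, with a difference of 0.3 (SE 0.12, edgeR adjusted p = 0.49). HSPA5 was lower in SW480 and higher in DLD-1, with a difference of -0.23 (SE 0.088, edgeR adjusted p = 0.49). MANF was higher in SW480 and lower in DLD-1, with a difference of 0.26 (SE 0.11, edgeR adjusted p = 0.49). None of the 4 differences passed the adjusted threshold. Over all tested genes the groups did not overlap in 26.2% (lower) and 21.7% (higher) of genes in SW480 and in 18.2% and 17.7% in DLD-1. The share of all genes that lay on opposite sides in the 2 lines was not counted, so the 4 genes are not shown to exceed it. DDIT4 stayed past the fold and p limits of the difference in each refit without 1 library other than DLD-1 shNAT10 replicate 2. PSPH was no longer past them in 3 of the 8 refits, when replicate 2 of SW480 shControl, replicate 1 of DLD-1 shControl or replicate 2 of DLD-1 shNAT10 was omitted, and with the length correction. MANF was no longer past them in 4 of the 8 refits, when replicate 2 of the shControl group or replicate 1 of the shNAT10 group was omitted in either line, and with the GC or the length correction. The difference of HSPA5, a fold of 0.851, did not pass the limits with all 8 libraries or in any of the 8 refits. The cause of these differences was not tested.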

How the results depend on the processing

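The limits of the depth and design touch genes near the thresholds: with 2 libraries a group, most calls depended on single libraries. In SW480 the genes lower at an adjusted p numbered 3 with DESeq2, 3 with the GC correction, 3 with the length correction, and 0 with upper-quartile scaling, with a filter of 1 count or with each cell line fitted alone; those higher numbered 0 with the last 2 of these settings. By the limits, SW480 genes lower numbered 2 with the length correction (VLDLR lost), and those higher 1 with either the GC or the length correction (SDF2L1 lost). In DLD-1 the limits lost PSAT1 with the GC correction and CHAC1 with the length correction, leaving 5, and 2 were lower at an adjusted p with the length correction. Over both lines, the genes lower at an adjusted p were 0 with a filter of 1 count and 7 with the length correction, those higher were 1 with DESeq2 and 1 with the length correction, and by the limits 2 were lower with the GC correction and 0 (GC) or 1 (length) higher.

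With a replicate block, adjusted calls were 8 lower and 3 higher in SW480, 4 lower in DLD-1, 10 lower and 2 higher over both lines, and 3 higher for the difference, which had 2 lower by the limits. The replicate numbers were not shown to pair the libraries (correlations of deviations 0.128 in SW480 and 0.0363 in DLD-1, 2 pairs each), so this fit only shows how the counts move.

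Leaving out each library in turn gave, in SW480, 2 to 6 lower and 1 to 5 higher by the limits, and 0 to 6 lower and 0 to 2 higher by adjusted p, with an ER median of -0.1 to -0.01 and an amino acid median (26 genes) of -0.018 to 0.079. In DLD-1 it gave 1 to 13 lower and 0 to 1 higher by the limits, an amino acid median (26 genes) of -0.26 to -0.094, and an ER median of -0.011 to 0.063, which turned to -0.011 without shNAT10 replicate 1 (the cause was not tested). Over both lines it gave 0 to 9 lower and 0 to 2 higher by adjusted p, and 3 to 5 lower and 0 to 2 higher by the limits. For the difference it gave 2 to 11 higher and 0 to 3 lower by the limits, and 0 to 1 higher by adjusted p. The lone library of a group was then assumed to vary like the others. The causes of the other moves were not tested.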

Other observations

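Heat shock genes, which answer unfolded protein outside the ER, were counted beside the ER genes, most of them cytosolic chaperones and HSPD1 and HSPE1 mitochondrial ones. Of 13 listed, 3 rose past the fold and p limits in SW480 (HSPA1A, HSPB1 and HSPE1) and 2 in DLD-1 (HSPA1B and the co-chaperone BAG3), where 4.1% and 1.34% of all tested genes rose, and none fell in either line. None passed an adjusted p of 0.05 by edgeR, with 4 and 3 at an unadjusted p under 0.05, against 19.3% and 5.96% of all genes. The median log2 change was 0.1 in SW480 and 0.06 in DLD-1. In SW480, log2 changes over all genes ran with GC content and transcript length, and values corrected for either are not given for these genes or for the eIF2 genes below. HSPE1, a mitochondrial chaperonin, stood at 122 and 120 CPM in SW480 shControl and 148 and 156 CPM in shNAT10, without overlap, at a log2 change of 0.33. In DLD-1 HSPE1 stood at 162.7 and 173.7 CPM in shControl and 140.5 and 164.8 CPM in shNAT10, at -0.14. Its SW480 change minus its DLD-1 change was 0.47, past the limits (edgeR adjusted p = 0.4). HSPB1 stood at 192 and 164 CPM in SW480 shControl and 251 and 212 CPM in shNAT10, at 0.38. BAG3 stood at 88.7 and 99.4 CPM in DLD-1 shControl and 115 and 114 CPM in shNAT10, at 0.28. HSPA1B stood at 130 and 182 CPM in DLD-1 shControl and 191 and 215.5 CPM in shNAT10, at 0.38. Its DLD-1 shControl libraries lay further apart than shControl replicate 2 and either shNAT10 library. HSPA1A and HSPA1B are near-identical copies, so the division of reads between them is uncertain.

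Of 16 genes of the eIF2 machinery, through which the integrated stress response acts, 1 passed the limits, the mitochondrial protease OMA1 in SW480 (7.15 and 7.79 CPM in shControl, 5.65 and 5.85 CPM in shNAT10, a log2 change of -0.38), and 0 in DLD-1. That share (6.25%) was near the 4.98% of all tested genes lower in SW480. The medians were -0.0046 and -0.023. For the difference between the lines, 1 of the 16 was higher past the limits (6.25%, against 3.8% of all tested genes) and 0 were lower.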
